A study of Mus musculus with 6 samples.

Results

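The genes described here were 10 genes of fatty acid uptake, chosen by symbol from the 53819 genes listed in the count table. They were the fatty acid transport proteins *Slc27a1* to *Slc27a6*, the fatty acid translocase *Cd36*, the carnitine palmitoyltransferases *Cpt1a* and *Cpt1b*, and the heart-type fatty acid binding protein *Fabp3*. *Slc27a6* was included because it was higher in DTRScxLin tendons, so its difference between the groups is given as a description with no test. The other members were listed by family and function. RNA was sequenced from the flexor digitorum longus (FDL) tendons of 3 WT and 3 DTRScxLin mice, 1 tendon per library, harvested at D28 after transection and repair of the tendon at 10 to 12 weeks of age. All 6 mice carried the inducible diphtheria toxin receptor allele (DTR F/+) and all received 5 daily injections of diphtheria toxin (DT), from D14 to D18. DTRScxLin mice were Scx-Cre+; DTR F/+, so that the toxin killed cells of the *Scleraxis* lineage (ScxLin), and WT mice were Scx-Cre-; DTR F/+ littermates. The Cre was not inducible, so the receptor was made in any cell with a history of *Scx* expression, and the allele by itself did not separate the groups. In the sample titles the 28 days start at depletion and in the protocols at surgery, and the latter is used here.

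Long-chain fatty acids reach a cell from albumin and from lipoproteins, and enter it through CD36 and the fatty acid transport proteins. The SLC27 proteins also couple coenzyme A to the fatty acid, which traps it inside, and fatty acid binding proteins carry it through the cytosol. Carnitine palmitoyltransferase 1, on the outer mitochondrial membrane, then makes the acyl-carnitine that enters the mitochondrion for beta-oxidation. Heart and skeletal muscle, fat, capillary endothelium and macrophages are the tissues and cells best known for this route, and a repaired tendon holds several of them next to its fibroblasts.

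Library totals ranged from 42744138 to 48854310 counts on genes. The tendon markers *Scx*, *Tnmd*, *Mkx* and *Fmod* were present in all 6 libraries, and a list of 12 tendon fibroblast genes held between 3.93% and 4.63% of the counts in WT and between 4.41% and 5.71% in DTRScxLin libraries. Of these, 10 were fitted higher and 2 lower in DTRScxLin tendons, beside 48.5% of all genes fitted lower. *Scx*, *Thbs4*, *Kera* and *Egr1* were higher without overlap, beside 8.96% of all genes. DESeq2 called 1 of the 12, *Thbs4*, which was higher (adjusted p = 5.94e-05), while edgeR did not call it (adjusted p = 0.307). *Scx* itself had 2201, 2703 and 3063 normalized counts across WT and 3475, 3406 and 3531 across DTRScxLin replicates 1 to 3, and did not pass the test (edgeR adjusted p = 0.371). The share of counts on 22 skeletal muscle genes was 2.82%, 2.50% and 2.04% across WT replicates 1 to 3, and 0.348%, 2.45% and 0.657% in DTRScxLin replicates 1 to 3, so that DTRScxLin replicate 2 was within the WT range and the other DTRScxLin libraries were far below it. A list of 12 keratinocyte genes held 0.335% and 0.208% in WT replicates 1 and 2 and at most 0.0356% in the other libraries. WT replicate 2 and DTRScxLin replicates 2 and 3 had at least 49303 counts of *Xist*, which is made in females, and the other libraries at most 4. Values below are normalized counts, that is counts scaled by TMM to the mean library size, and differences are log2 fold changes of DTRScxLin against WT from edgeR's quasi-likelihood fit, with their standard error (SE).

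In the promoter sequences of RefSeq on GRCm38.p6, 7 of the 10 members had a window of 250 bases before to 50 bases after a transcription start. Slc27a5, Slc27a6 and Cpt1b had none there. The windows of *Cd36*, *Fabp3* and *Cpt1a* are shown because these genes carry the comparison across libraries made below. *Cd36* and *Fabp3* were both lowest in DTRScxLin replicate 1 and highest in DTRScxLin replicate 2, while *Cpt1a* varied little. Each is printed 5′ to 3′ on the strand of its gene, with matches in capitals to AGGTCA, the half-site bound by nuclear receptors such as the PPARs, and to the E-box CANNTG, which is bound by helix-loop-helix factors, each searched on both strands. They lie at chr5:17835847-17836146 (minus strand), chr4:130308488-130308787 (plus strand) and chr19:3323051-3323350 (plus strand).
Cd36: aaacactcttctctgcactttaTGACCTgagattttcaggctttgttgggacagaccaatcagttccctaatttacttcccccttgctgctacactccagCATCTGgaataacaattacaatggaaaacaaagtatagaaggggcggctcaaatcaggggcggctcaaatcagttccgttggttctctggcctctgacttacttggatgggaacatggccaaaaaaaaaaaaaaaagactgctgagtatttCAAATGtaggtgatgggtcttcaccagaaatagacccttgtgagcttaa
Fabp3: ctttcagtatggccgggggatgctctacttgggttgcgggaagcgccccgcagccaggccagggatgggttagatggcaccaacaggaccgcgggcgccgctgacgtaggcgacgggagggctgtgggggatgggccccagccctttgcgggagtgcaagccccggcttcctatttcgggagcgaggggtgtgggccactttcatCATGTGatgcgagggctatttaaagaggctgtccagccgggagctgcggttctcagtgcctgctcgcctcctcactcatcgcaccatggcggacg
Cpt1a: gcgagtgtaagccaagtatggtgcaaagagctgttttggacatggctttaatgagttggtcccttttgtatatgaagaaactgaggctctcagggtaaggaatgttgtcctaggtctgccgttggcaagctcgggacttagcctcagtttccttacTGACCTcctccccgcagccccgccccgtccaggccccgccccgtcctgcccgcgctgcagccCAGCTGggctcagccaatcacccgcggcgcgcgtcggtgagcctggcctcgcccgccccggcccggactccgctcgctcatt
The half-site was found once in the *Cd36* window and once in the *Cpt1a* window, in both cases as its reverse complement TGACCT. On neither strand was it found in the *Fabp3* window. Among the members whose windows are not printed, *Slc27a2* held the half-site once, and *Slc27a1*, *Slc27a3* and *Slc27a4* did not hold it. Of all 32851 promoter windows of this length, 16.3% held it. The E-box was found in the windows of all 7 members, with 2 matches in *Cd36* and 1 each in *Fabp3* and *Cpt1a*, and 72.3% of all windows held it.

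Levels can be compared between genes only per length, so normalized counts were also divided by library size and by the merged exon length of each gene (CPM per kilobase, CPM being counts scaled to a library of fixed size). On this scale *Cd36* was the most abundant member, at 39.9 ± 3.47 (SD, n = 3) in WT tendons. It was followed by *Cpt1a* at 11.3 ± 1.602, *Slc27a3* at 9.38 ± 1.10, *Slc27a4* at 9.17 ± 2.16, *Fabp3* at 8.58 ± 0.755 and *Slc27a1* at 7.09 ± 0.539 (SD, n = 3 each). In this order the ranges of neighbours overlapped, with the exceptions of *Cd36* against *Cpt1a* and of *Fabp3* against *Slc27a1*. *Cpt1b*, at 0.286 ± 0.0519, and *Slc27a6*, at 0.244 ± 0.048, came far below and overlapped with each other in WT tendons. In DTRScxLin tendons *Slc27a6* stood at 0.853 ± 0.294 and *Cpt1b* at 0.120 ± 0.0299 (SD, n = 3 each), without overlap. The level of *Cpt1b* is uncertain because it overlaps another gene, as described below. *Slc27a2* and *Slc27a5* were near the limit of detection in all libraries.

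**Figure D1:**
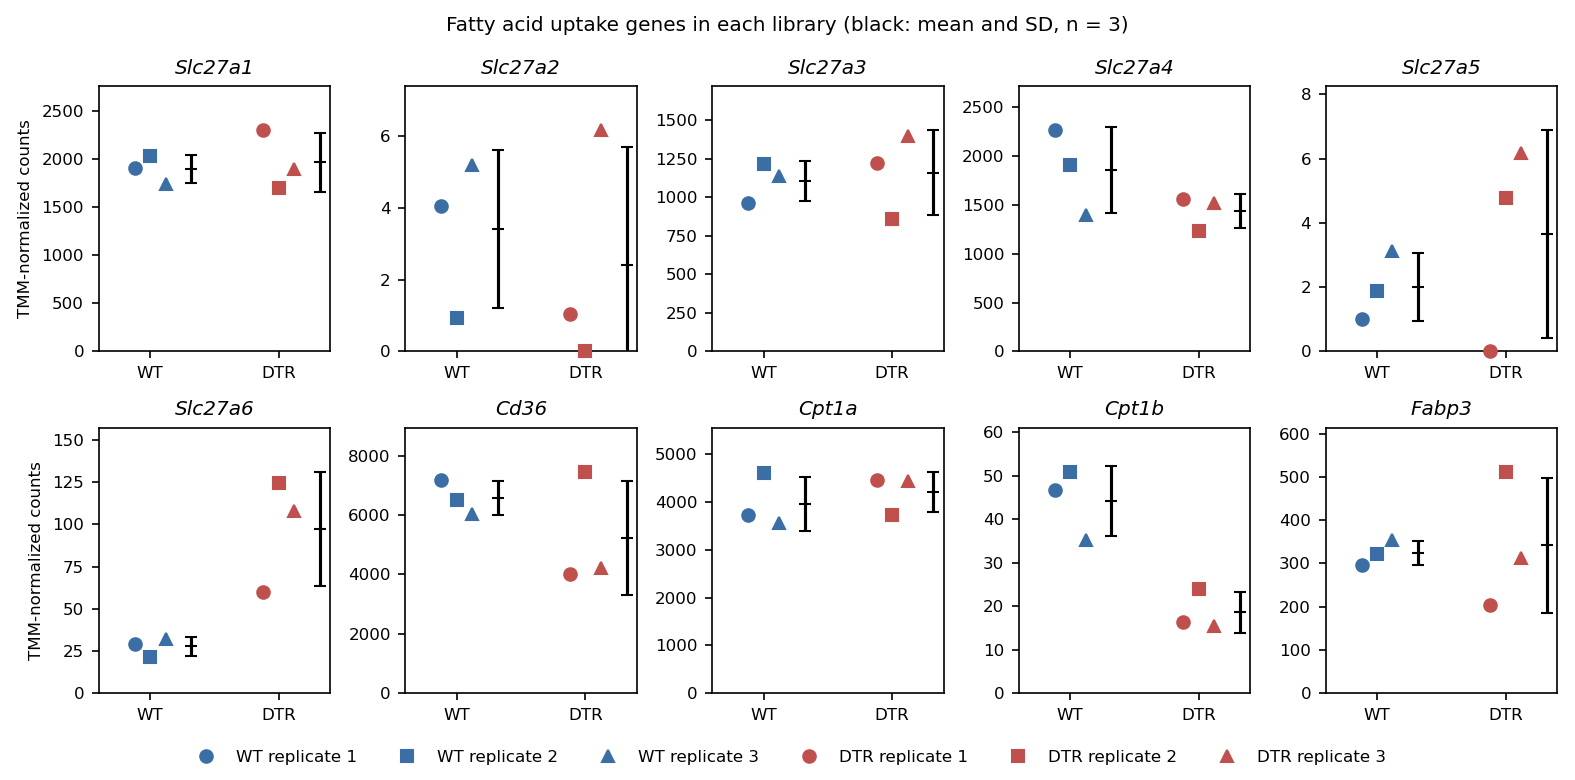
Normalized counts (linear axis from 0, scaled for each gene) of the 10 fatty acid uptake genes in the 3 WT (blue) and 3 DTRScxLin (red, labelled DTR) libraries, with the symbol giving the replicate number and black marks the mean and SD of each group, where a lower bar ending under 0 is cut at 0. *Slc27a6* was between 21.7 and 32.2 in WT and between 59.8 and 124 in DTRScxLin, *Cpt1b* was lower in each DTRScxLin library than in each WT library, and *Cd36* and *Fabp3* were highest in DTRScxLin replicate 2.

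*Slc27a6* encodes FATP6, a transport protein best known from heart muscle. It had 29.4, 21.7 and 32.2 normalized counts across WT replicates 1 to 3 and 59.8, 124 and 108 in DTRScxLin replicates 1 to 3. Each DTRScxLin library was above each WT library, and within the DTRScxLin group replicate 1 was between the WT libraries and the other DTRScxLin libraries, nearer to the former. The log2 fold change was 1.81 (SE 0.36), a fitted 3.50-fold higher level, from 27.8 ± 5.47 in WT to 97.3 ± 33.5 in DTRScxLin tendons (SD, n = 3 each). Among all genes tested, 8.96% were higher in each DTRScxLin library than in each WT library, and since the gene was picked for this difference nothing is read from its place among them. The raw counts behind these values were small. They ran from 23 in WT replicate 2, with a 95% exact Poisson interval of 14.6 to 34.5, to 130 in DTRScxLin replicate 2, with an interval of 109 to 154. The nearest libraries of the groups had intervals that almost met. These were WT replicate 3, with 31 reads (21.06 to 44), and DTRScxLin replicate 1, with 58 reads (44.04 to 74.98). All these intervals cover counting error only. In bulk tissue, a change in the number of cells that make a transcript and a change in the RNA made per cell cannot be told apart.

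Among the DTRScxLin libraries *Slc27a6* ranked as the muscle list did, lowest in replicate 1 and highest in replicate 2, whereas the WT libraries, with muscle shares from 2.04% to 2.82%, had less *Slc27a6* than DTRScxLin replicate 1, with 0.348%. *Slc27a6* in the female DTRScxLin replicates 2 and 3 was above that in the male DTRScxLin replicate 1, while in WT tendons the female replicate 2 was the lowest. The share of the tendon list was between 3.93% and 4.63% in WT and between 4.41% and 5.71% in DTRScxLin libraries, and the part of muscle, sex and tendon cells in these values was not tested. With 1 library left out in turn, its log2 fold change ranged from 1.59 without DTRScxLin replicate 2 to 2.06 without DTRScxLin replicate 1.

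Among the 14408 other genes tested that averaged 50 or more normalized counts, the 5 with the pattern most like that of *Slc27a6* over the 6 libraries were *Prokr1*, *Slc5a7*, *Gm18787*, *Tro* and *Ttyh1*. Likeness was taken as the root mean square difference of log2 levels, each gene centred on its own mean, which was 0.247 for *Prokr1*, 0.253 for *Slc5a7*, 0.334 for *Gm18787*, 0.370 for *Tro* and 0.386 for *Ttyh1*. *Prokr1*, a prokineticin receptor, had 28.4, 28.2 and 31.2 normalized counts across WT replicates 1 to 3 and 68.0, 92.8 and 94.5 in DTRScxLin replicates 1 to 3. *Slc5a7*, the choline transporter, had 47.7, 33.9 and 31.2 in WT and 79.3, 173 and 117 in DTRScxLin replicates 1 to 3. Like *Slc27a6*, *Prokr1*, *Slc5a7* and *Ttyh1* were lowest among the DTRScxLin libraries in replicate 1, while *Gm18787* was lowest in replicate 3 and *Tro* in replicate 2. The genes were ranked by likeness, so nothing is read from a shared order. Of the other members tested, *Fabp3* had the smallest distance from *Slc27a6* (0.882) and *Cpt1b* the largest (1.49).

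The other transport proteins either overlapped between the groups or were hardly detected. *Slc27a1* (FATP1, found in muscle and fat) had 1913, 2034 and 1747 normalized counts across WT replicates 1 to 3 and 2303, 1700 and 1901 in DTRScxLin replicates 1 to 3. *Slc27a3*, an acyl-CoA synthetase of the family whose role in uptake is less well established, had 964, 1218 and 1137 in WT and 1225, 857 and 1398 in DTRScxLin. The groups overlapped for both genes, and both were lowest in DTRScxLin replicate 2, the library with the most *Slc27a6*. The log2 fold change was 0.05 for *Slc27a1*, with a 95% interval of -0.24 to 0.34 and an edgeR adjusted p = 0.905. For *Slc27a3* it was 0.07, with a 95% interval of -0.37 to 0.50 and an edgeR adjusted p = 0.919.

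*Slc27a4* (FATP4), which is needed in the intestine and for the barrier of the skin, had 2266, 1911 and 1395 normalized counts across WT replicates 1 to 3 and 1558, 1234 and 1516 in DTRScxLin replicates 1 to 3. The groups overlapped only through WT replicate 3, and the log2 fold change was -0.37 (SE 0.18, 95% interval -0.81 to 0.06, adjusted p = 0.491 from edgeR's test). The 2 highest libraries, WT replicates 1 and 2, were also those with the most keratinocyte transcripts, and the part of skin in the *Slc27a4* values was not tested. Without WT replicate 1 the log2 fold change of *Slc27a4* was -0.20, and without WT replicate 3 it was -0.54.

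*Slc27a2* and *Slc27a5*, the transport proteins of liver and, for *Slc27a2*, kidney, did not pass the filter on low counts. *Slc27a2* had 4, 1 and 5 reads in WT and 1, 0 and 6 in DTRScxLin replicates 1 to 3, and *Slc27a5*, which also conjugates bile acids, had 1, 2 and 3 reads in WT and 0, 5 and 6 in DTRScxLin replicates 1 to 3. No difference was detectable at this depth. Of 8 hepatocyte markers, *Ttr*, *Serpina1c* and *Fgb* were at 0 in all 6 libraries, *Alb*, *Apoa1*, *Apoa2* and *Cps1* had at most 10.4 normalized counts, and *Cyp2e1*, which fat also expresses, had 33.5, 15.1 and 158 across WT and 5.15, 16.3 and 1.03 across DTRScxLin replicates 1 to 3. *Cyp2e1* was the 1 of the 8 that was tested, and DESeq2 called it lower (adjusted p = 0.0259) while edgeR did not (adjusted p = 0.447).

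Summed over *Slc27a1* to *Slc27a6*, the normalized counts were 4895 ± 498 in WT and 4667 ± 656 in DTRScxLin tendons (SD, n = 3 each), which differed by less than the spread between replicates. *Slc27a6* made up 0.568% of the family's reads in WT replicate 1 (95% exact binomial interval 0.381% to 0.815%), 0.417% in WT replicate 2 (0.265% to 0.626%) and 0.746% in WT replicate 3 (0.507% to 1.06%). In DTRScxLin replicates 1 to 3 it made up 1.16% (0.883% to 1.499%), 3.17% (2.66% to 3.76%) and 2.185% (1.79% to 2.64%). The interval of DTRScxLin replicate 1 overlapped that of WT replicate 3. *Slc27a6* was therefore a minor transcript of the family in both groups, and *Slc27a1*, *Slc27a3* and *Slc27a4* together held nearly all of its reads. These shares are not scaled for length.

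**Figure D2:**
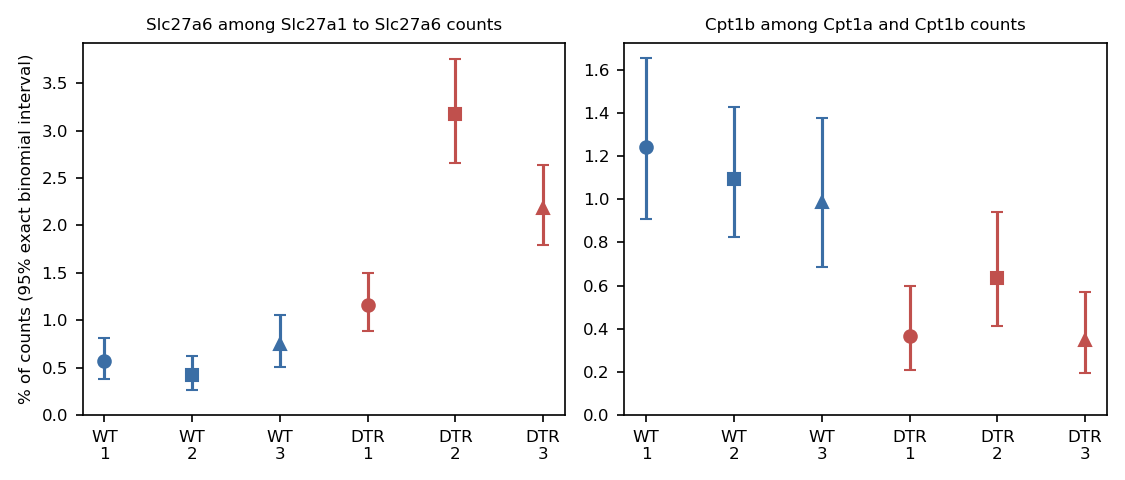
Share of *Slc27a6* among the reads of *Slc27a1* to *Slc27a6* (left) and of *Cpt1b* among the reads of *Cpt1a* and *Cpt1b* (right), in percent, in each library (blue WT, red DTRScxLin, labelled DTR), with 95% exact binomial intervals as bars. The *Slc27a6* share was at most 0.746% in WT and at least 1.16% in DTRScxLin libraries, and the *Cpt1b* share at least 0.986% in WT and at most 0.637% in DTRScxLin libraries. For *Slc27a6* the intervals of WT replicate 3 and DTRScxLin replicate 1 overlapped. For *Cpt1b* the interval of DTRScxLin replicate 2 overlapped that of each WT library.

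*Cd36* encodes the fatty acid translocase, a scavenger receptor of capillary endothelium, fat, muscle and macrophages. It had 7177, 6498 and 6042 normalized counts across WT replicates 1 to 3 and 4013, 7439 and 4224 in DTRScxLin replicates 1 to 3. DTRScxLin replicate 2 was the highest of all libraries, and DTRScxLin replicates 1 and 3 were below every WT library. Over the 6 libraries the log2 fold change was -0.33 (SE 0.25, 95% interval -0.94 to 0.27), and the edgeR adjusted p = 0.639. Without DTRScxLin replicate 2, the highest library, it was -0.67 (SE 0.11), a level 1.59-fold lower in DTRScxLin than in WT tendons. That fit passed the test (adjusted p = 0.0242 from edgeR), and in it 2.45% of 17998 genes were called lower and 0.572% higher. With any other single library left out, the log2 fold change of *Cd36* lay between -0.39 and -0.18 and did not pass edgeR's test. The order of the libraries in *Cd36* was close to that in the muscle list. The 12 endothelial markers held between 0.0672% and 0.0869% of the counts in WT and between 0.0644% and 0.0791% in DTRScxLin libraries, and the 12 macrophage markers between 0.205% and 0.237% and between 0.201% and 0.231%, so both lists overlapped between the groups. The part of muscle and of these cells in the *Cd36* values was not tested.

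*Fabp3*, the fatty acid binding protein of heart and skeletal muscle, had 296, 323 and 353 normalized counts across WT replicates 1 to 3 and 204, 511 and 312 in DTRScxLin replicates 1 to 3. The DTRScxLin libraries lay below, above and within the WT range, and the log2 fold change was 0.08 (SE 0.31, 95% interval -0.66 to 0.82, adjusted p = 0.947 from edgeR's test). Its sign was not stable, and the log2 fold change was -0.33 without DTRScxLin replicate 2 and 0.34 without DTRScxLin replicate 1. Set against the summed counts of the 22 muscle genes, *Fabp3* had 22.9, 28.8 and 37.9 counts per 100000 muscle counts across WT replicates 1 to 3, and 121, 44.6 and 108 in DTRScxLin replicates 1 to 3. On this ratio each DTRScxLin library was above each WT library, and the highest were the muscle-poor replicates 1 and 3. The muscle counts it divides by were 164077 and 280788 in DTRScxLin replicates 1 and 3, and at least 897359 in the other libraries. A gene at an unchanged level would therefore also be higher on this ratio in DTRScxLin replicates 1 and 3. The share of all genes that were higher on this ratio was not computed, so nothing is read from it about *Fabp3*.

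Of the carnitine palmitoyltransferases, *Cpt1a*, the isoform of liver and of most tissues other than muscle, had 3713, 4592 and 3546 normalized counts across WT replicates 1 to 3 and 4460, 3729 and 4422 in DTRScxLin replicates 1 to 3. The groups overlapped, and the log2 fold change was 0.09 (SE 0.12, 95% interval -0.20 to 0.38, adjusted p = 0.819 from edgeR's test). *Cpt1b*, the muscle isoform, had 46.7, 50.8 and 35.3 normalized counts across WT and 16.5, 23.9 and 15.4 in DTRScxLin replicates 1 to 3. Each DTRScxLin library was below each WT library, and among all genes tested 7.85% were lower without overlap. The mean was 44.3 ± 8.03 in WT and 18.6 ± 4.63 in DTRScxLin tendons (SD, n = 3 each), a log2 fold change of -1.24 (SE 0.34, 95% interval -2.03 to -0.46) or a fitted level 2.37-fold lower. *Cpt1b* did not pass the threshold over all genes, with an adjusted p = 0.340 from edgeR's test and 0.147 from DESeq2. The unadjusted p from edgeR was 0.0065, and 5.45% of all genes were lower at an unadjusted p under 0.05.

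*Cpt1b* made up 1.24% of the reads of both isoforms in WT replicate 1 (95% exact binomial interval 0.910% to 1.65%), 1.09% in WT replicate 2 (0.824% to 1.43%) and 0.986% in WT replicate 3 (0.684% to 1.38%). In DTRScxLin replicates 1 to 3 the share was 0.368% (0.211% to 0.597%), 0.637% (0.413% to 0.939%) and 0.347% (0.195% to 0.572%). The share in DTRScxLin replicate 2 was below that in each WT library, but its interval overlapped each of theirs. The muscle list held 2.45% of the counts in that library and 2.04% in WT replicate 3. The raw *Cpt1b* counts were small, at 25 in DTRScxLin replicate 2 (95% exact Poisson interval 16.18 to 36.9) and 34 in WT replicate 3 (23.55 to 47.51). These intervals overlapped as well and cover counting error only. Per 100000 counts of the 22 muscle genes, *Cpt1b* had 3.61, 4.54 and 3.79 counts across WT replicates 1 to 3 and 9.75, 2.09 and 5.34 in DTRScxLin replicates 1 to 3, so on this ratio the DTRScxLin libraries lay on both sides of the WT range. All 22 muscle genes were fitted lower in DTRScxLin tendons, beside 48.5% of all genes, with their median at -1.25 on the log2 scale. Of the 22, 6 were lower without overlap, beside 7.85% of all genes. The part of muscle in the *Cpt1b* values was not tested.

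**Figure D3:**
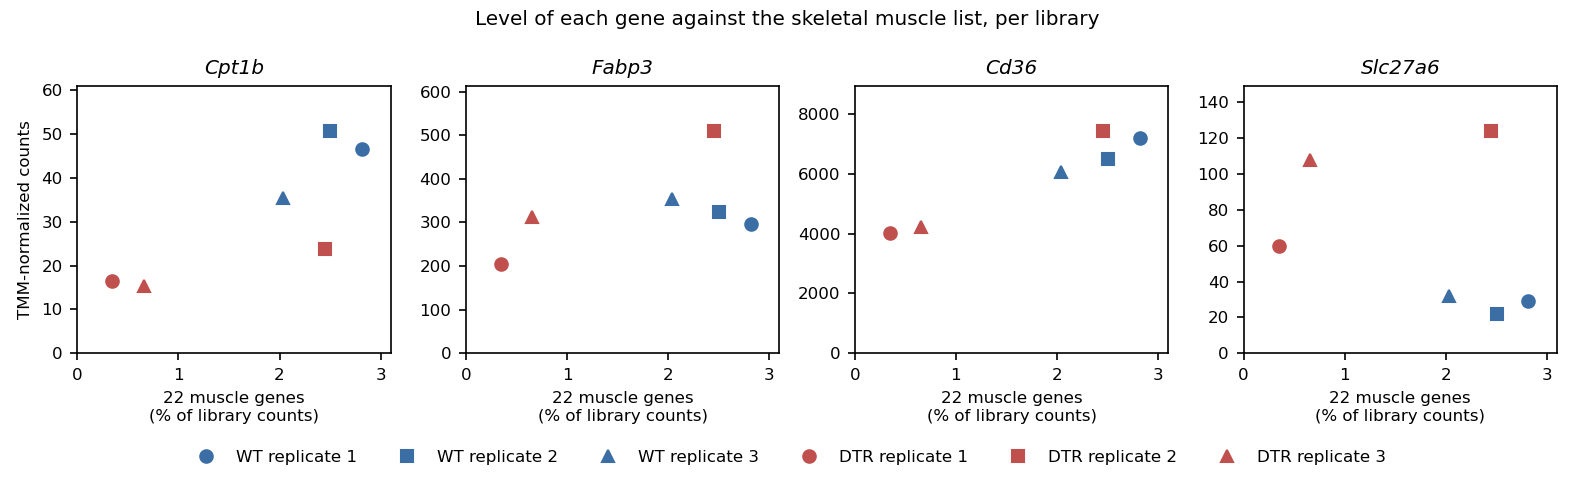
Normalized counts (linear axes from 0) of *Cpt1b*, *Fabp3*, *Cd36* and *Slc27a6* against the share of library counts on the 22 skeletal muscle genes (percent), with 1 point per library in the colours and symbols of the plot of all members (blue WT, red DTRScxLin, labelled DTR). *Cd36* was highest in the 4 libraries with at least 2.04% muscle counts. *Cpt1b* in DTRScxLin replicate 2 was below the WT libraries at a like muscle share, on small raw counts. *Slc27a6* was above the WT libraries in DTRScxLin libraries at both low and high muscle shares.

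By RefSeq's gene spans, *Cpt1b* lies within the read-through transcript *Gm44502*, *Fabp3* overlaps *Zcchc17* and *Cpt1a* overlaps *Gm36532*. *Gm44502* had 0 counts in all 6 libraries, and the pseudogene *Fabp3-ps1* at most 3. The count of 0 for *Gm44502* does not show that *Cpt1b* kept all its reads. Reads shared by overlapping genes may be counted for none of them. Neither the strand setting nor the handling of shared reads is given in the sources used here. Reads of these overlapping genes could therefore have been split, shared or left out, and the levels of *Cpt1b*, *Fabp3* and *Cpt1a* are uncertain to that extent. This holds for the rank, shares and ratios of *Cpt1b* given above. The other 7 members overlapped no other gene in that table.

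**Figure D4:**
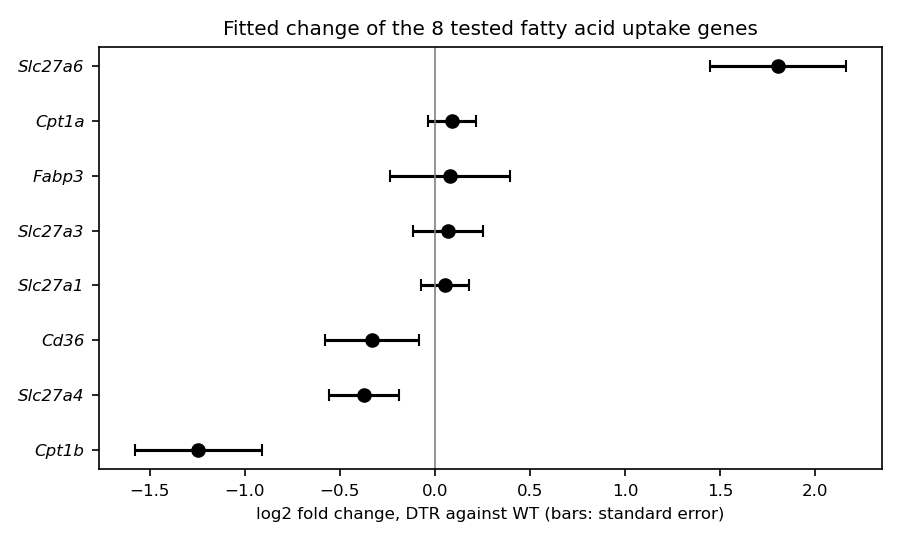
Log2 fold change of DTRScxLin against WT from edgeR for the 8 members that passed the filter on low counts, with the standard error as bars. *Slc27a6* stood at 1.81 and *Cpt1b* at -1.24, and the other 6 genes between -0.37 and 0.09.

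Over all 17496 genes tested, edgeR called 0 genes at an adjusted p under 0.05 (0%), with 965 higher (5.52%) and 953 lower (5.45%) at an unadjusted p under 0.05. DESeq2 gave an adjusted p for 17564 genes, and of these it called 197 higher (1.12%) and 269 lower (1.53%), 2.65% in either direction. Of the 7 members tested other than *Slc27a6*, edgeR called 0 and DESeq2 called 0, and *Cpt1b* was the 1 with an unadjusted p under 0.05 from edgeR. The median of these 7 genes was 0.05 on the log2 scale, beside 0.01 over all genes tested.

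A wider list of 89 genes of fatty acid handling, sorted by role, held 82 genes that were tested. Of these, 58 (70.7%) were fitted lower and 24 higher in DTRScxLin tendons, beside 48.5% of all genes fitted lower, and the median was -0.16 on the log2 scale, beside 0.01 over all genes. In 20 of the 82 (24.4%) each DTRScxLin library was below each WT library, beside 7.85% of all genes, and in 1 of the 82 each was above, beside 8.96% of all genes. None of the 82 was called by edgeR, where 17 were lower and 1 higher at an unadjusted p under 0.05. DESeq2 called 8 lower, beside 1.53% of all genes, and 0 higher. Without DTRScxLin replicate 2, edgeR called 10 lower, beside 2.45% of all genes, and 0 higher. With the replicate number as a block, it called *Plin4* alone, beside 0.00572% of all genes. Of the 12 adipocyte markers, 6 are in this list. With these left out, 17 of 76 genes (22.4%) were lower without overlap and the median was -0.14. The 22 skeletal muscle genes were also all fitted lower, with a median of -1.25. The share of counts they held was 0.348% and 0.657% in DTRScxLin replicates 1 and 3, and at least 2.04% in the other libraries, DTRScxLin replicate 2 included. The part of muscle and fat in the list was not tested.

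The lipid droplet genes had the lowest median of the roles, at -1.55 over 9 genes, of which 4 (44.4%) were lower without overlap, beside 7.85% of all genes. *Cidec*, which fuses droplets in fat cells, had 39.6, 57.4 and 101.8 normalized counts across WT replicates 1 to 3 and 1.03, 11.5 and 2.05 in DTRScxLin replicates 1 to 3, and was called lower by DESeq2 (adjusted p = 0.00012). *Plin1*, the coat protein of the fat cell's droplet, had 101 ± 28.9 in WT and 21.1 ± 14.2 in DTRScxLin tendons (SD, n = 3 each) and was also called lower by DESeq2 (adjusted p = 0.00365). *Dgat2*, which makes triglyceride, was the third gene called, with 834 ± 387 and 284 ± 89.5 (adjusted p = 0.000706 from DESeq2, n = 3 each). It had 1213, 851 and 438 normalized counts across WT replicates 1 to 3 and 210, 383 and 258 in DTRScxLin replicates 1 to 3. The order of the WT libraries was that of the keratinocyte list and the reverse of *Adipoq*, and the part of skin in *Dgat2* was not tested. *Plin4*, a droplet coat protein of fat and muscle, was at a log2 fold change of -2.28 (SE 0.71) and was not called by DESeq2 (adjusted p = 0.0558). Of the other genes of this role, *Cidea* was at -2.06 (SE 0.90) and *Plin5* at -0.93 (SE 0.62), both with groups that overlapped. *Plin2*, *Plin3* and *Dgat1* were within 0.12 of 0 on the log2 scale. The adipocyte marker *Adipoq* had 96.4, 187 and 273 normalized counts across WT and 17.5, 62.2 and 26.7 in DTRScxLin replicates 1 to 3, and all 11 tested adipocyte markers were fitted lower, 7 of them without overlap, beside the same 7.85% of all genes. Their part in the droplet genes was not tested.

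Among the genes of lipolysis and lipid delivery, *Pnpla2*, the triglyceride lipase ATGL, had 3136, 3506 and 2834 normalized counts across WT replicates 1 to 3 and 1677, 2470 and 1610 in DTRScxLin replicates 1 to 3. It was lower in each DTRScxLin library (log2 fold change -0.72, SE 0.18) and was called by DESeq2 (adjusted p = 0.0095). *Vldlr*, a receptor that brings lipoproteins to the cell, had 7584, 6513 and 4015 in WT and 1204, 3650 and 1038 in DTRScxLin replicates 1 to 3, and did not pass (adjusted p = 0.219 from DESeq2). *Lpl*, the lipase that frees fatty acids from lipoproteins, was at a log2 fold change of -0.0044 with groups that overlapped.

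The fatty acid binding and activating proteins gave no call. *Fabp4*, of fat, endothelium and macrophages, was at -0.27 (SE 0.25) and *Fabp5*, of skin and other tissues, at -0.34 (SE 0.53), and both overlapped between the groups. *Acsbg1* had 1129, 781 and 49.9 normalized counts across WT replicates 1 to 3 and 60.8, 31.6 and 269 in DTRScxLin replicates 1 to 3, so that it was highest in the 3 libraries with the most keratinocyte transcripts, and its part from skin was not tested. The acyl-CoA synthetase *Acsl6* had 1513, 1710 and 1132 in WT and 223, 1476 and 416 in DTRScxLin replicates 1 to 3, and followed the muscle list, with DTRScxLin replicate 2 within the WT range. *Acsl3* was the 1 gene of the list that was higher in each DTRScxLin library, from 1246, 1301 and 1621 to 2058, 1975 and 1625, and it is named here after its values were seen.

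Downstream of uptake, most fitted values were below 0 and small. The 15 genes of mitochondrial beta-oxidation had a median of -0.13 on the log2 scale, and 13 were fitted lower, beside 48.5% of all genes. None of the 15 was called by edgeR or DESeq2. *Acadm*, the medium-chain acyl-CoA dehydrogenase, was at -0.39 (SE 0.12) and *Hadh* at -0.31 (SE 0.15). The 11 tested peroxisomal genes had a median of -0.05, with *Phyh* at -0.39 (SE 0.12) and *Abcd2* at -0.42 (SE 0.34). In the carnitine shuttle, *Crat*, carnitine acetyltransferase, had 4596 ± 783 in WT and 2907 ± 549 in DTRScxLin tendons (SD, n = 3 each) and was called lower by DESeq2 (adjusted p = 0.0169), while the carnitine carrier *Slc22a5* was at -0.21 (SE 0.12) and the inner membrane enzyme *Cpt2* at -0.05. Of the membrane partners of uptake, *Got2*, also known as the plasma membrane fatty acid binding protein, had 3265 ± 407 and 2121 ± 516 (SD, n = 3 each) and was called lower by DESeq2 (adjusted p = 0.0412). The caveolar gene *Cavin1* was at 0.09 (SE 0.15).

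The median of the regulators was -0.33 on the log2 scale, with 13 of 15 fitted lower and 6 (40%) lower without overlap, beside 48.5% and 7.85% of all genes. *Acacb*, the acetyl-CoA carboxylase whose product malonyl-CoA inhibits carnitine palmitoyltransferase 1, had 1867, 1935 and 1279 normalized counts across WT replicates 1 to 3 and 408, 944 and 544 in DTRScxLin replicates 1 to 3, and was called lower by DESeq2 (adjusted p = 0.000122). *Ppargc1a*, a coactivator of mitochondrial genes, had 775, 586 and 364 in WT and 130, 327 and 110 in DTRScxLin replicates 1 to 3, and was called lower as well (adjusted p = 0.00412 from DESeq2). In both genes, as in *Cpt1b*, DTRScxLin replicate 2 was the highest DTRScxLin library and was still below each WT library. *Pdk4*, a kinase that shifts fuel use from glucose to fat, was at -1.87 (SE 0.74) with WT replicate 3 within the DTRScxLin range. *Acaca*, the carboxylase of fatty acid synthesis, was at 0.15 (SE 0.11).

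**Figure D5:**
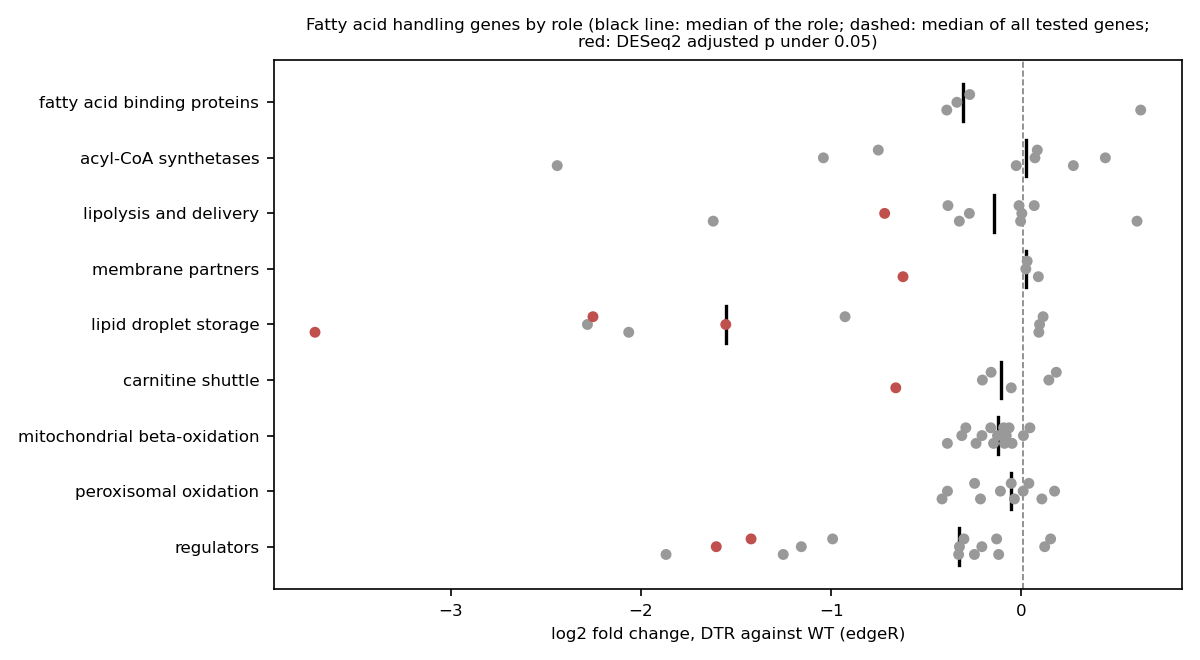
Log2 fold change of DTRScxLin against WT from edgeR for each tested gene of the fatty acid handling list, grouped by role, with the median of each role as a black line, the median of all tested genes (0.01) as a dashed line, and genes with a DESeq2 adjusted p under 0.05 in red. The 8 red points all lie below 0, and the lipid droplet genes have the lowest median, -1.55.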

How the data were processed

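Poly(A) RNA of FDL tendons was sequenced as single-end reads from 200 ng total RNA (the labels name a TruSeq stranded and a SMARTER kit). The authors cleaned the reads with FastP, used featureCounts to assign them to genes and deposited the raw counts, with a second table of normalized counts (signal) in which each library was divided by its DESeq2 (1.22.1) size factor. Multiplying back gave whole reads, identical to the counts, for 100% of values (tolerance 0.001), and edgeR called 0 genes on them. The aligner, genome build, annotation and strand setting are not given in the sources used here, so genes are given by symbol.

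For this report, R 4.3.3 was used with edgeR 4.0.16 (filterByExpr, TMM, robust quasi-likelihood fit on genotype, Benjamini-Hochberg over 17496 genes, threshold 0.05), DESeq2 1.42.0 and limma 3.58.1. The tests were tested on simulated data. Standard errors are the absolute log2 fold change over the square root of F. Exon lengths came from GENCODE vM21, and all 10 members were matched. The members and gene lists were chosen with earlier results of these data known. Named genes were all members, the 2 genes per role with the largest absolute log2 fold change and at least 50 normalized counts, any called gene, and the 5 genes most like *Slc27a6*. Other genes named, *Acsl3*, *Lpl*, *Plin2*, *Plin3*, *Plin5*, *Cidea*, *Dgat1*, *Cpt2* and *Acaca*, were added after their values were seen. Replicates were separate tendons, and chi-square tests of their counts gave 40.1 to 209 per degree of freedom, so none was counted as a duplicate. Alternatives were DESeq2, limma-voom, RLE and library-size scaling, other filters on low counts, the replicate number as a block, a term for sex, each library left out, and the deposited normalized counts as log2(value + 1).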

Additional observations from a re-analysis of the deposited data

How the results depend on the processing

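Over all genes, edgeR's 0 calls became 466 with DESeq2, 83 with no filter on low counts, 1 with the replicate number as a block, and between 0 and 544 with 1 library left out, the highest without DTRScxLin replicate 2. Of the 7 members tested other than *Slc27a6*, between 0 and 1 were called with 1 library left out (*Cd36* without DTRScxLin replicate 2). Of the fatty acid handling list, 8 were called with DESeq2, 1 with the block (*Plin4*) and between 0 and 10 with 1 library left out, the highest again without DTRScxLin replicate 2. Fitted signs turned in 5 of the named genes. *Fabp3* was at -0.0044 in limma-voom, -0.0184 with the block, -0.16 with a term for sex, -0.019 from the deposited normalized counts, and between -0.33 and 0.34 with 1 library left out. With 1 library left out, *Slc27a1* ranged from -0.0801 to 0.15, *Slc27a3* from -0.0865 to 0.25, *Fabp5* from -0.69 to 0.23 and *Cavin1* from -0.0435 to 0.24. The causes were not tested. The groups did not overlap for *Slc27a6* and *Cpt1b*, so leaving out 1 library could hardly turn their signs. *Slc27a6* ranged from 1.59 to 2.06 and *Cpt1b* from -1.47 to -1.13. Since *Slc27a6* was picked for its rise, nothing is read from its range. The sample titles number the replicates without saying that the numbers pair the libraries. Deviations of same-numbered libraries from their group means had correlations of -0.188, -0.149 and -0.684. Those of other-numbered libraries lay between -0.454 and 0.559. With 3 libraries per group that differed in muscle, skin and sex, these values cannot exclude a pairing. *Slc27a2* and *Slc27a5* had at most 6 reads in any library.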
